A study of Mus musculus with 14 samples.

Results

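NC siRNA #1 and NC siRNA #2 are the pair of non-targeting small interfering RNAs (siRNAs) that served as transfection controls in a study of the RNA-binding protein Sbp2l in oligodendrocytes (OLs), and their transcriptomes at Day3 were compared here with each other. An siRNA is loaded into an Argonaute protein, and its guide strand pairs with mRNAs and lowers those it matches. A non-targeting siRNA is designed to match no mRNA of the cell fully, although a short stretch at the start of the guide can pair with many transcripts. The compared features were the genes with FPKM (fragments divided by exon length and by the depth of the library) of at least 1 in 2 or more of the 4 libraries. This left 11113 of the 23427 genes in the table. The nucleotide sequences of both siRNAs are not used here.

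The cells were mouse primary oligodendrocyte precursor cells (OPCs), the dividing cells that give rise to OLs, the myelin-forming glia of the central nervous system. OPCs carry the receptor Pdgfra and divide under its ligand. When growth factor is withdrawn and the thyroid hormone T3 is added, they leave the cell cycle and switch on myelin genes in an order, early ones such as Cnp and Mbp before late ones such as Mog and Mobp. All groups came from wild-type C57BL/6J mice. Cortical cells of pooled early postnatal pups were purified on dishes coated with an antibody against Pdgfra, after passage over plates that remove microglia and endothelial cells. Both NC groups were transfected with a lipid reagent and carry the label Day3. Per the study's methods, cells were kept after transfection for the time that the label Day3 names and then harvested, also for RNA libraries. For its differentiation series the study counts days from growth factor withdrawal and T3 addition. Whether and when growth factor was withdrawn and T3 added for the transfected cells is not given in the sources used here. The question this comparison answers is how far apart the controls lie. For orientation, levels are also given for mock cells (transfection without siRNA, Day3), non-treated cells (Day3), Day0 cells and cells given an siRNA against Sbp2l or Pdgfra (siSbp2l and siPdgfra, Day3), each with 2 libraries, 14 in all.

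The NC siRNA #1 libraries held 19713275 and 19054671 fragments and the NC siRNA #2 libraries 18481168 and 6560011, as estimated from the steps between low values. NC siRNA #2 replicate 2 was thus the shallowest library of the series, where 3 fragments on 2 kb of exon equalled 0.229 FPKM, against 0.0761 to 0.0812 FPKM in the other 3 libraries. Replicates lay close together. Within NC siRNA #1, 7 of the 11113 genes differed 2-fold or more between the replicates on FPKM + 1, within NC siRNA #2 18, and within mock 12. The non-treated pair stood apart, with 245 such genes, and its replicate difference followed GC content (Spearman correlation 0.81 across genes, which are not independent replicates). In NC siRNA #1 the replicate difference followed GC content with a Spearman correlation of -0.48. The study's methods call the replicate cultures independent, while the labels name neither cultures nor animals. The p-values thus measure the spread between replicate libraries, pooled over the 12 Day3 libraries with the non-treated pair included. That spread may be technical.

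The labelled cell type was checked against its markers. Olig2, which marks the oligodendrocyte lineage, read 129 and 139.5 FPKM in NC siRNA #1 and 166 and 162 FPKM in NC siRNA #2. Of 13 microglia markers, 11 were under 1 FPKM in all 4 libraries, among them Aif1, Cx3cr1, Tmem119 and Csf1r, which were at or near 0. The other 2 were Cd68 and P2ry12, which was higher in NC siRNA #1 and is described below. For pericytes or fibroblasts, 12 of 12 markers stayed under 1 FPKM. Some markers of astrocytes and neurons were far higher, among them Gfap, S100b and Tubb3, whose values are given below.

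The controls differed in many genes. At a fold change of 2 or more on FPKM + 1 and an adjusted p under 0.05 (limma, Benjamini-Hochberg), 275 genes were higher in NC siRNA #1 and 191 were lower. These are 2.47% and 1.72% of the genes tested, 4.19% together. Without the fold threshold, 1158 genes were higher (10.4%) and 1235 lower (11.1%), so the excess of higher genes was present among large differences and not among all. Counts by p alone depended on the non-treated pair in the fit. At an unadjusted p under 0.05 (limma) 3629 genes passed, and 5549 without that pair, while the called genes numbered 466 and 465. The median difference of all genes tested was -0.056 on the log2 scale. Among the called genes 41 were at least 4-fold higher and 12 at least 4-fold lower. In 372 of the 466 called genes all 4 libraries were at 1 FPKM or more, while 144 genes entered the test through NC siRNA #1 alone and 173 through NC siRNA #2 alone, 46 and 25 of them called. At the edge of the filter, the second-highest of the 4 values was 1.00 FPKM for Rgs7bp, Ror1 and Plekha7, just inside, and 0.998 to 0.999 FPKM for Capn1, Sult4a1 and Rab7l1, just outside. All differences below are NC siRNA #1 minus NC siRNA #2 on the log2(FPKM + 1) scale.

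**Figure D1:**
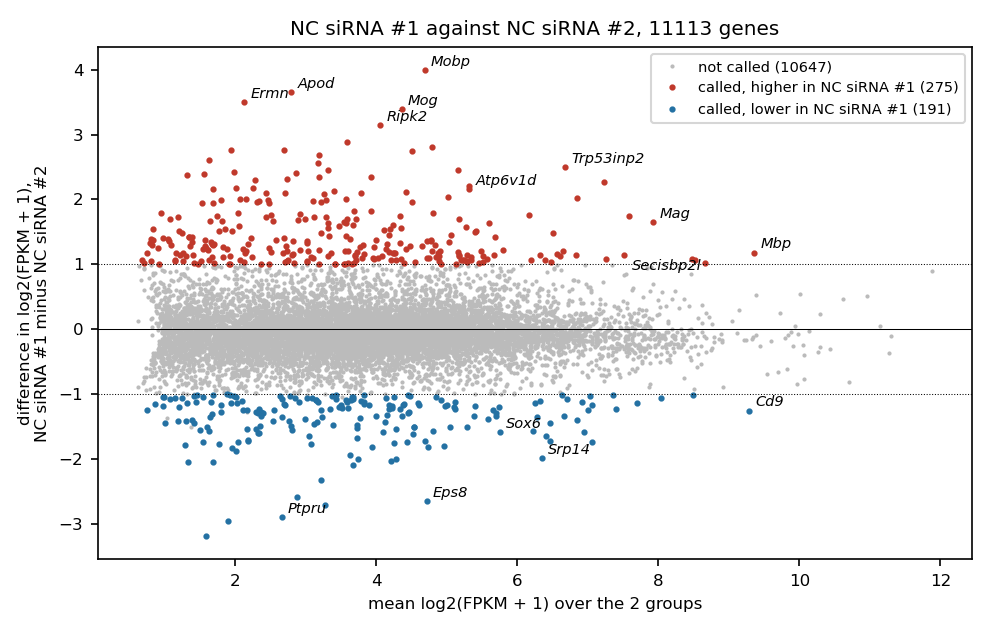
Difference between NC siRNA #1 and NC siRNA #2 in log2(FPKM + 1) (y axis) against the mean log2(FPKM + 1) of both groups (x axis) for 11113 genes, each point 1 gene. Red points are the 275 genes called higher in NC siRNA #1 and blue points the 191 called lower, the dotted lines mark 2-fold, and the late myelin genes Mobp, Mog, Ermn and Apod lie at the top.

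Among the lists the highest median was that of late oligodendrocyte genes, which mark mature and myelinating cells. Of 25 tested members of this list, 13 were called higher in NC siRNA #1 and 1 lower, against 2.47% and 1.72% of all genes, and the median of the list was 1.12 against -0.056 for all genes. Of these 25, Mal, Ermn, Hapln2, Ndrg1 and S1pr5 were under 1 FPKM in both NC siRNA #2 libraries and entered the test through NC siRNA #1 alone, so that they had to be higher there. Among the other 20, 9 were called higher and 1 lower, with a median of 0.88. The other 5 members of the list, Aspa, Klk6, Ppp1r14a, Evi2a and Galnt6, did not pass the filter. Mobp, a small basic protein of the compact myelin sheath (mm10 chromosome 9, 120149742 to 120176091), showed the largest difference of all genes tested. It read 103 and 101 FPKM in NC siRNA #1 and 5.05 and 5.93 FPKM in NC siRNA #2, a difference of 3.99 (95% interval 3.700 to 4.28; adjusted p 1.17e-07). Mobp was 20.5 FPKM in mock on average and 3.67 FPKM in siSbp2l, so NC siRNA #2 lay nearer to siSbp2l than to mock for this gene while NC siRNA #1 lay above all other groups. Mog, a glycoprotein of the outermost myelin lamella (chromosome 17, 37010740 to 37023398), read 64.4 and 67.2 FPKM against 5.23 and 5.45 FPKM, a difference of 3.398 (adjusted p 1.17e-07). Mock cells held 36.3 FPKM of Mog, between the groups. Apod, a secreted lipocalin of mature OLs (chromosome 16, 31296192 to 31314596), read 23.8 and 23.4 FPKM against 0.872 and 1.06 FPKM, with 2.47 FPKM in mock. Ermn, a cytoskeletal protein of late OLs (chromosome 2, 58045115 to 58052752), read 14.9 and 12.7 FPKM against 0.353 and 0.2597 FPKM, with 1.65 FPKM in mock. For Apod and Ermn mock was thus nearer to NC siRNA #2. Trf, the iron carrier transferrin (chromosome 9, 103208876 to 103230286), read 333 and 324 FPKM against 66.9 and 68.3 FPKM, and mock, at 89.9 FPKM, was again nearer to NC siRNA #2. Pdlim2, an adaptor of the actin cytoskeleton, read 69.9 and 75.97 FPKM against 9.08 and 9.97 FPKM. The libraries of the NC groups did not overlap in any of these genes. The same held for all 466 called genes and for 8061 of the 11113 genes tested. The other 7 higher genes were Hapln2, Car2, Anln, S1pr5, Tmem88b, Sept4 and Ndrg1, with differences from 1.12 to 2.16.

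The list was not uniform. Ninj2, an adhesion protein, was called lower at 23.5 and 21.96 FPKM against 52.5 and 48.4 FPKM (-1.12, adjusted p 0.000156). Opalin, a membrane glycoprotein of OLs named here after its values were seen, read 20.02 and 24.2 FPKM against 38.7 and 37.2 FPKM (-0.76, adjusted p 0.00302), the opposite direction to Mog and Mobp but under 2-fold. Ptgds, the most abundant member of the list, read 1254 and 1468 FPKM against 1139 and 1169 FPKM, and its difference of 0.23 did not pass (adjusted p 0.527). Ndrg1 was not called without NC siRNA #2 replicate 1 (0.99). Without NC siRNA #2 replicate 2, 13 members were called higher and 1 lower, and without the non-treated group the counts were 13 and 1 as well.

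Early myelin genes divided. Of 17 tested, 4 were called higher and 1 lower, and the median of the list was 0.45. Among the 16 with 1 FPKM or more in a library of each group, 3 were called higher and 1 lower. Mbp, the basic protein that compacts the myelin membrane, read 994 and 981 FPKM in NC siRNA #1 and 434 and 436 FPKM in NC siRNA #2 (1.18, SE 0.19, adjusted p 0.0018). Mag, an adhesion glycoprotein facing the axon (chromosome 7, 30899183 to 30914832), read 415 and 446 FPKM against 135 and 137 FPKM (1.65, adjusted p 0.000438). Mock lay at 795 FPKM for Mbp and 417 FPKM for Mag, so that for both genes NC siRNA #2 was the group away from mock. Gpr37, a receptor of differentiating OLs, read 54.7 and 55.4 FPKM against 24.4 and 28.2 FPKM (1.04, adjusted p 7.26e-05), with mock at 32.1 FPKM nearer to NC siRNA #2. Without NC siRNA #2 replicate 1 its difference was 0.94, under 2-fold. Cd9, a tetraspanin of myelin (chromosome 6, 125460266 to 125494755), went the other way, at 385 and 426 FPKM against 935 and 996 FPKM (-1.25, adjusted p 6.59e-05). Mock held 519 FPKM of Cd9, so NC siRNA #2 was again the group away from mock. Cldn11, the claudin of the myelin tight junction, named after its values were seen, read 1195 and 1316 FPKM against 2113 and 2307 FPKM (-0.82, adjusted p 0.000607). Cnp, an enzyme of non-compact myelin, read 1808 and 1895 FPKM against 1339 and 1339.7 FPKM and did not pass (0.47, adjusted p 0.052).

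**Figure D2:**
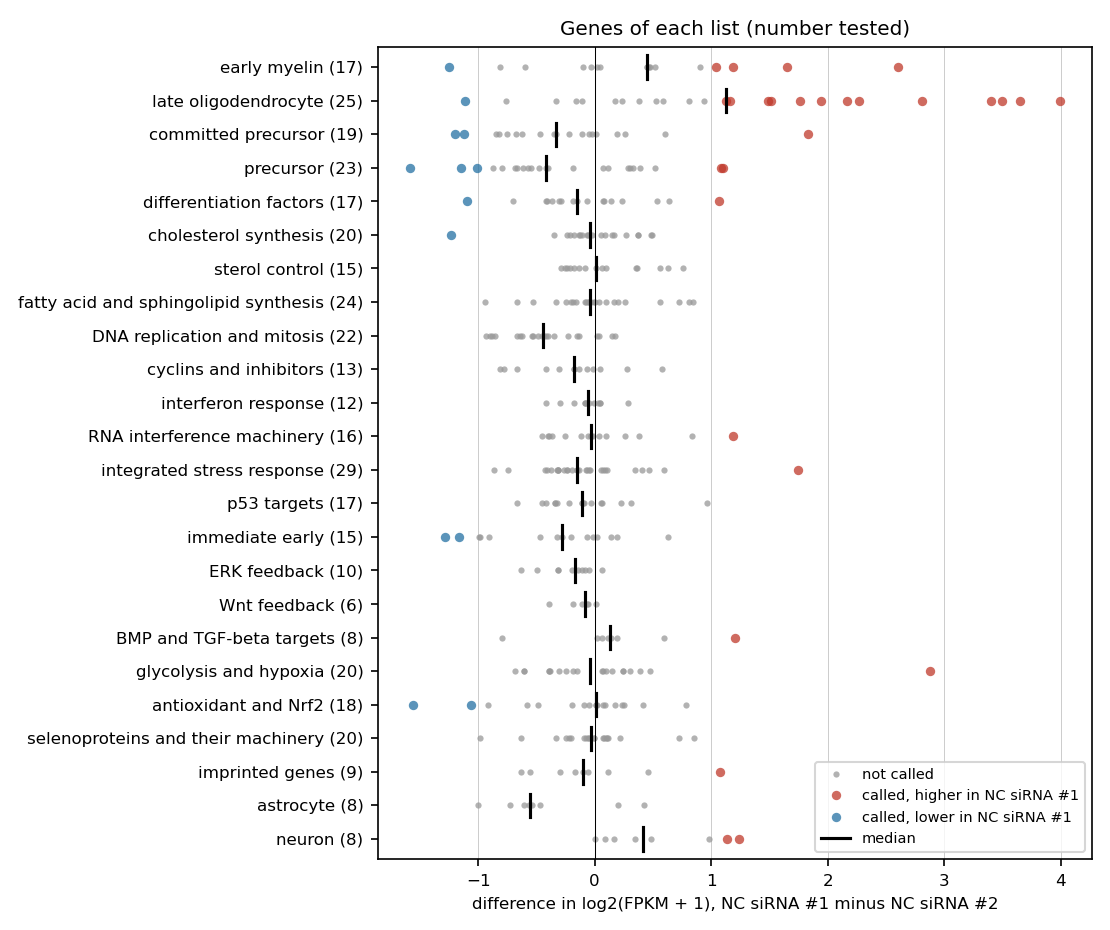
Difference in log2(FPKM + 1), NC siRNA #1 minus NC siRNA #2 (x axis), of the tested genes of each list (y axis, number tested in brackets). Each point is 1 gene, red or blue where called higher or lower and grey where not, and the black bar is the median of the list; late oligodendrocyte genes have the highest median (1.12) and astrocyte genes the lowest (-0.55).

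Genes of earlier stages leaned the other way, with few past the fold threshold. Among 23 tested precursor genes, 2 were called higher and 3 lower, and with the adjusted p alone 2 were higher and 9 lower, against 10.4% and 11.1% of all genes. Their median was -0.42. Sox6, a factor that holds OPCs in the precursor state, read 30.8 and 29.8 FPKM in NC siRNA #1 and 93.8 and 91.4 FPKM in NC siRNA #2 (-1.58, adjusted p 4.85e-05), with mock at 46.2 FPKM. Ednrb, an endothelin receptor, read 116 and 114 FPKM against 231 and 234 FPKM, and Gria3, an AMPA receptor subunit, 3.49 and 3.19 FPKM against 8.89 and 8.31 FPKM. Both were called lower. The higher members were Bcan, a brain proteoglycan (208 and 238 FPKM against 104 and 105 FPKM), and Dscam, an adhesion molecule (19.7 and 18.97 FPKM against 9.18 and 7.82 FPKM). Bcan fell under 2-fold without NC siRNA #1 replicate 2 (0.98), and Dscam without NC siRNA #2 replicate 2 (0.9991). Among 19 tested genes of committed precursors, Tmem2, a membrane protein with hyaluronidase activity, was called higher (1.83), the sulfotransferase gene Ust (-1.199) and the sialidase gene Neu4 (-1.12) were called lower, and the median was -0.33. With the adjusted p alone, 2 of these 19 genes were higher and 8 lower, and the 8 fell to 4 without NC siRNA #2 replicate 1 and to 5 without NC siRNA #1 replicate 1. Of 22 tested genes of DNA replication and mitosis 0 were called, against 4.19% of all genes. At a pseudocount of 0.1 in place of 1, 5 of the 22 were called lower and 0 higher. Most were low in all 4 libraries, for example Top2a at 1.33 and 1.98 FPKM against 4.11 and 3.74 FPKM. Mki67, Ccnb1, Cdk1, Mcm3 and Plk1 were under 1 FPKM in both NC siRNA #1 libraries and entered the test through NC siRNA #2 alone, so that they had to be higher there. Among the other 17, 7 were lower and 0 higher at an adjusted p under 0.05 (limma). Over all 22 the count of lower genes was 11, and it fell to between 4 and 6 without any 1 of the NC libraries. The median of the 22 was -0.44, but that of the 5 members with FPKM of at least 5 in 2 libraries was 0.024. The abundant members Pcna (65.2 and 61.5 FPKM against 65.3 and 59.3 FPKM) and Rrm1 (18.98 and 19.02 FPKM against 17.0 and 17.1 FPKM) did not pass.

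Of 17 tested transcription factors of differentiation 1 was called in each direction, against 2.47% and 1.72% of all genes. Carhsp1, an RNA-binding protein on this list, was called higher (117 and 124 FPKM against 56.04 and 58.3 FPKM), and Nkx2-2, a homeobox factor of the lineage, was called lower (18.9 and 20.7 FPKM against 42.2 and 44.3 FPKM; -1.09, adjusted p 0.00232). The median was -0.15. With the adjusted p alone, 2 were higher and 3 lower, and without the non-treated group 4 and 8. Myrf, the master regulator of myelin genes (listed as Gm98), was named after its values were seen. It read 244 and 256 FPKM against 165 and 155 FPKM (0.64, adjusted p 0.0172), under 2-fold. The lineage factor Olig2, whose levels are given above, did not pass (-0.29, adjusted p 0.107). Tcf7l2, the Wnt pathway factor that the study follows, read 48.6 and 47.2 FPKM against 51.6 and 48.8 FPKM, a difference of -0.066 (95% interval -0.26 to 0.13; adjusted p 0.669).

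The gene at the centre of the study also differed between its controls. Secisbp2l, which encodes Sbp2l (chromosome 2, 125736986 to 125782870), read 255 and 244 FPKM in NC siRNA #1 and 135 and 140.4 FPKM in NC siRNA #2. The groups did not overlap, as was the case for 8061 of the 11113 genes tested. The difference of 0.86 (95% interval 0.54 to 1.17, limma adjusted p 0.0018) passed the adjusted p but not the fold threshold. Mock cells held 159 FPKM and non-treated cells 190.2 FPKM, both between the NC groups, and siSbp2l cells 3.87 FPKM. Its paralog Secisbp2, which serves the insertion of selenocysteine, was level at 14.4 and 13.7 FPKM against 13.9 and 14.4 FPKM (-0.0093, 95% interval -0.23 to 0.21). Of 20 tested selenoproteins and factors of their synthesis 0 were called, against 4.19% of all genes, and the median was -0.028. At an adjusted p under 0.05 (limma), 2 were higher and 1 lower, against 10.4% and 11.1% of all genes. Gpx4, the lipid peroxide reductase, read 199.7 and 210.3 FPKM against 220.4 and 210.1 FPKM. Sepw1 and Sep15, the most abundant of the list, gave -0.22 and -0.089, and neither passed.

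Other genes that the study discusses moved by less than 2-fold. Pdgfra read 32.4 and 32.7 FPKM against 47.01 and 44.3 FPKM (-0.48, adjusted p 0.00924), below mock (62.1 FPKM) in both groups. Tppp, a tubulin-binding protein of OLs, read 303 and 293 FPKM against 219.7 and 215 FPKM (0.45, adjusted p 0.00964), and mock was above both at 428 FPKM. Ccnd1, a cyclin of the G1 phase, read 8.43 and 8.96 FPKM against 5.43 and 5.54 FPKM (0.58, adjusted p 0.00158). Larp6, an RNA-binding protein (0.21), and Jun, an immediate early factor (0.14), did not pass.

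**Figure D3:**
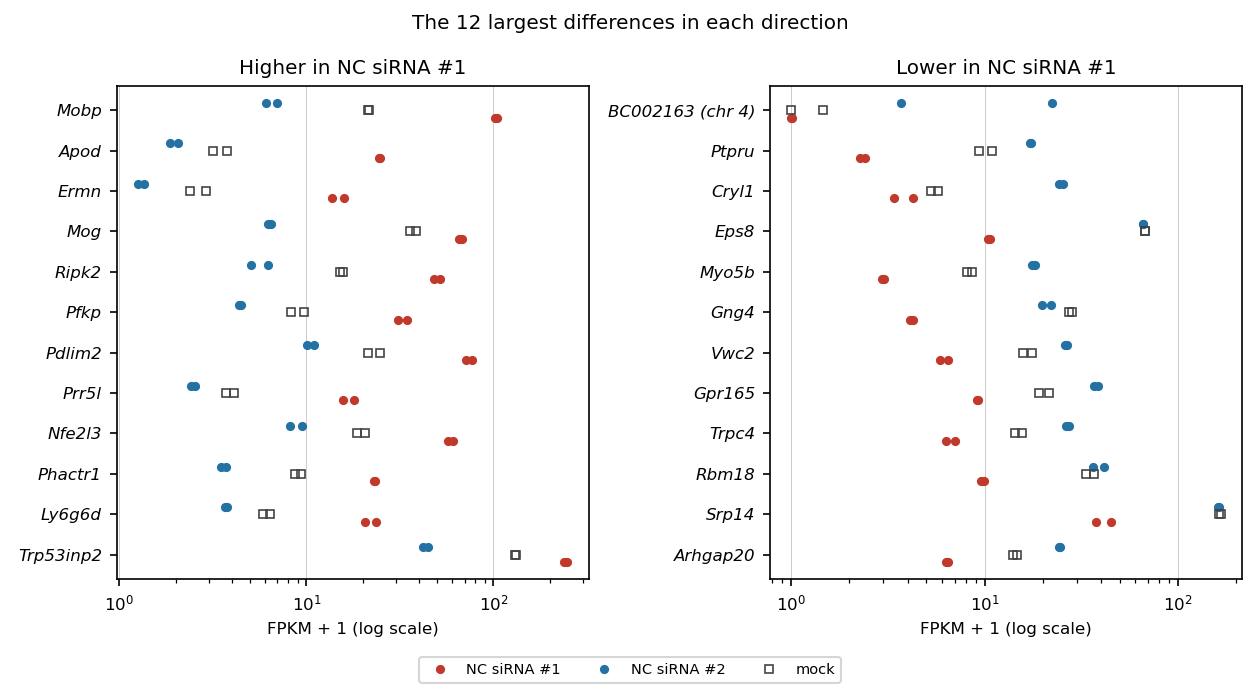
FPKM + 1 on a log axis (x) of the 12 genes with the largest difference in each direction among called genes with FPKM of at least 10 in 1 or more of the 4 libraries (y). Filled points are single libraries of NC siRNA #1 (red) and NC siRNA #2 (blue) and open squares single mock libraries. That the red and blue points do not overlap was a condition for picking the 24 genes.

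Beyond myelin, the largest rises in NC siRNA #1 were in genes of several kinds. Ripk2, a kinase of innate immune signalling (chromosome 4, 16123375 to 16163498), read 50.5 and 46.9 FPKM against 4.07 and 5.21 FPKM (3.15, adjusted p 4.52e-07). Mock, at 14.4 FPKM, lay between. Pfkp, the platelet form of phosphofructokinase (chromosome 13, 6579874 to 6648724), read 33.4 and 29.8 FPKM against 3.49 and 3.34 FPKM (2.88, adjusted p 4.52e-07). Its sister enzymes, chosen after their values were seen, did not follow, with 0.29 for Pfkm (adjusted p 0.148) and 0.066 for Pfkl (adjusted p 0.847), and Pfkp was the 1 called gene of 20 tested in the glycolysis and hypoxia list. Trp53inp2, an autophagy protein, was the most abundant of the 12, at 238 and 248 FPKM against 40.97 and 43.6 FPKM. Prr5l, a partner of the kinase complex mTORC2, Nfe2l3, a leucine zipper factor, Phactr1, a regulator of actin, and Ly6g6d, a member of the Ly6 family, completed the 12 with differences from 2.57 to 2.76.

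The largest falls were led by a gene that the table does not measure well. BC002163, listed as a pseudogene of a subunit of respiratory chain complex I, read 2.68 and 21.4 FPKM in the NC siRNA #2 libraries and near 0 in NC siRNA #1, and its copies may share reads, so its difference of -3.18 (SE 0.87, adjusted p 0.0261) is uncertain, and it lost its call without either NC siRNA #1 replicate or NC siRNA #2 replicate 2. Ptpru, a receptor phosphatase (chromosome 4, 131768457 to 131838278), read 1.26 and 1.40 FPKM against 16.1 and 16.4 FPKM (-2.89, adjusted p 1.68e-06), with mock at 9.16 FPKM. Eps8, which links growth factor receptors to actin (chromosome 6, 137477245 to 137649285), read 9.72 and 9.36 FPKM against 64.6 and 64.9 FPKM (-2.64, adjusted p 1.75e-07). Mock and non-treated cells held 66.5 and 72.3 FPKM of Eps8, so NC siRNA #1 was the group away from them. Rbm18, a protein with an RNA-binding domain, read 8.62 and 8.87 FPKM against 35.4 and 40.5 FPKM, with 34.1 FPKM in mock and 40.9 FPKM in non-treated cells, so here too NC siRNA #1 was the group away from them. Cryl1, an enzyme of sugar metabolism, read 2.41 and 3.27 FPKM against 24.4 and 23.2 FPKM, with mock at 4.501 FPKM near NC siRNA #1. Myo5b, a motor of vesicle transport, Gng4, a G protein subunit, Vwc2, a secreted BMP antagonist, the orphan receptor Gpr165, the cation channel Trpc4 and the GTPase regulator Arhgap20 had differences from -2.58 to -1.94.

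Some genes set one control apart from every other Day3 library. A gene was counted when both libraries of a group were at least 2-fold below, or above, all 10 other Day3 libraries on FPKM + 1. NC siRNA #1 had 6 such genes below and 12 above, and NC siRNA #2 had 9 below and 8 above. Mock and non-treated had 0 in either direction, and siSbp2l and siPdgfra had 107 and 70 below and 57 and 71 above, over the same 11113 genes. These genes were chosen by their values and are described without a test. The 6 genes lowest in NC siRNA #1 were Srp14, Rbm18, Lpcat1, Crk, Ryk and Myo5b. Srp14, a subunit of the signal recognition particle (chromosome 2, 118475843 to 118479696), read 36.6 and 43.8 FPKM in NC siRNA #1 and 159 and 162 FPKM in NC siRNA #2, with 163 FPKM in mock, 161 FPKM in non-treated and 156 FPKM in siSbp2l. The other subunits Srp9, Srp19, Srp68 and Srp72 were chosen after their values were seen. None of them was called, and their differences ran from -0.67 for Srp9 to 0.29 for Srp72. Lpcat1, a lysophospholipid acyltransferase, read 11.9 and 14.8 FPKM against 50.7 and 47.4 FPKM, Crk, an adaptor of tyrosine kinase signalling, 22.9 and 21.6 FPKM against 63.5 and 66.8 FPKM, and Ryk, a Wnt receptor, 10.01 and 10.96 FPKM against 32.1 and 32.1 FPKM.

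The 9 genes lowest in NC siRNA #2 were Trp53inp2, Atp6v1d, Tpm3, Gpt2, Ripk2, Fam107b, Fgfr2, Hhip and Ppp1r14c. Atp6v1d, subunit D of the lysosomal proton pump (chromosome 12, 78842982 to 78861638), read 85.3 and 81.99 FPKM in NC siRNA #1 and 18.2 and 17.7 FPKM in NC siRNA #2, against 93.9 FPKM in mock and 54.5 FPKM in siSbp2l. The V1 subunits Atp6v1a, Atp6v1b2, Atp6v1c1, Atp6v1e1, Atp6v1f, Atp6v1g1 and Atp6v1h were chosen after their values were seen. None of them was called, and their differences ran from -0.26 for Atp6v1f to 0.699 for Atp6v1a. Tpm3, a tropomyosin, read 83.1 and 83.5 FPKM against 29.8 and 31.3 FPKM, and Gpt2, a mitochondrial alanine aminotransferase, 35.7 and 36.6 FPKM against 9.72 and 10.4 FPKM. Fgfr2, a fibroblast growth factor receptor of the lineage, read 8.53 and 8.82 FPKM against 3.099 and 3.44 FPKM. Fgfr1, chosen after its values were seen, differed by -0.32 (limma adjusted p 0.159). The 12 genes highest in NC siRNA #1 included the OL genes Mobp, Trf, Pdlim2 and Hapln2 beside Pfkp, Phactr1, Ly6g6d, Endod1, Fcho1, Iqch, Plekhh1 and Spock2. The 8 highest in NC siRNA #2 were Ptpn14, Cryl1, Slc6a19, 1300002K09Rik, Igfbpl1, Lmcd1, Slc35d3 and Sprr1a, of which Ptpn14, a phosphatase, was the most abundant at 27.9 and 27.7 FPKM against 7.13 and 7.32 FPKM in NC siRNA #1.

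**Figure D4:**
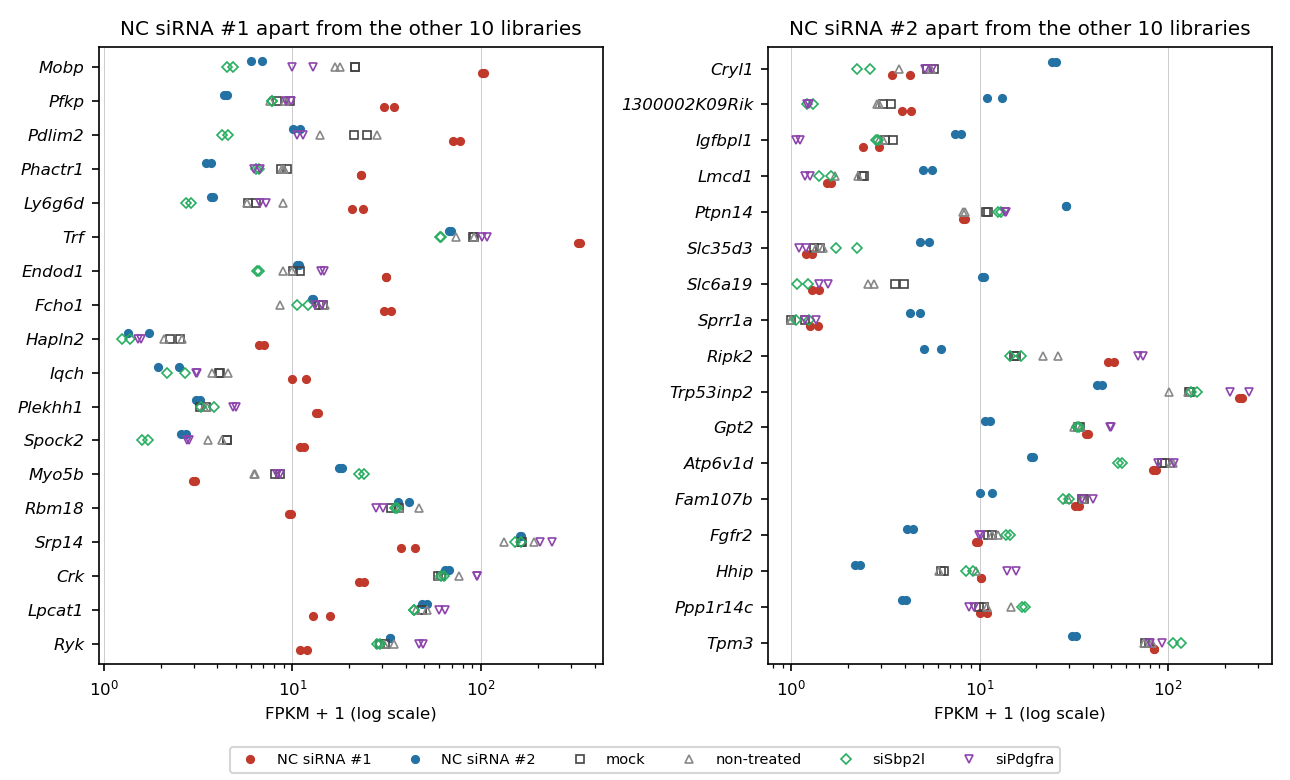
FPKM + 1 on a log axis (x) in the 12 Day3 libraries for the genes (y) in which NC siRNA #1 (left, 12 above and then 6 below) or NC siRNA #2 (right, 8 above and then 9 below) lay at least 2-fold beyond all 10 other libraries. Each point is 1 library, and the groups are told apart by colour and shape.

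The lists of genes that respond to foreign RNA or to stress held 0 or 1 called gene each, which at their sizes does not set them apart from the 4.19% of all genes. Of the 40 genes of the interferon response in the table, 12 passed the filter and 0 were called in either direction. At an adjusted p under 0.05 (limma) the count was also 0, at an unadjusted p under 0.05 it was 2, and the median was -0.058. With the adjusted p alone, 2 were lower when the 4 NC libraries were fitted alone or the non-treated group was left out, and 3 were lower and 1 higher with library quality weights. Adar, an RNA editing enzyme, read 11.1 and 11.4 FPKM against 11.9 and 12.1 FPKM. Isg15, Cxcl10 and Oas1a were listed at 0 in all 4 libraries. Among 16 genes of the RNA interference machinery only Eif2c1 (Argonaute 1) was called, at 26.4 and 26.3 FPKM against 11.1 and 10.9 FPKM (1.19, adjusted p 1.06e-05), with mock at 19.8 FPKM. Tsnax (-0.12) and Snd1 (-0.400), its most abundant members, did not pass. With the adjusted p alone, 3 of the 16 were higher and 3 lower, and the 3 lower fell to 0 without NC siRNA #1 replicate 1 or NC siRNA #2 replicate 1 and to 1 without either other NC library. Of 29 tested genes of the integrated stress response only Gpt2 was called, and Psat1 (0.596, adjusted p 0.00146) and Nars (0.35, adjusted p 0.0607) were the most abundant. On the adjusted p alone, 2 of the 29 were higher and 3 lower, 5 and 10 without the non-treated group, and the 3 lower fell to 1 without NC siRNA #1 replicate 1. Among 17 tested p53 targets 0 were called, 1 was higher and 2 were lower at an adjusted p under 0.05, and Bax (-0.22) and Ei24 (0.23) did not pass. Without NC siRNA #1 replicate 1 or NC siRNA #2 replicate 1, 1 p53 target was called higher and 0 were lower at an adjusted p under 0.05.

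Metabolic lists had medians near that of all genes. Of 20 tested genes of cholesterol synthesis, the pathway that supplies the myelin membrane, Hsd17b7 alone was called, at 21.6 and 21.7 FPKM against 49.5 and 54.98 FPKM (-1.23, adjusted p 3.45e-05). The median was -0.039, and Hmgcs1 (-0.35, adjusted p 0.0643) and Acat2 (-0.022) did not pass. None of the 15 tested genes of sterol control and none of the 24 of fatty acid and sphingolipid synthesis was called. At these sizes that does not set them apart from the 4.19% of all genes. At an adjusted p under 0.05, 3 genes of sterol control were higher and 0 lower (1 higher without NC siRNA #1 replicate 1 or either NC siRNA #2 replicate), and 3 of fatty acid and sphingolipid synthesis were higher and 3 lower. Of the genes of sterol control, Mylip was under 1 FPKM in both NC siRNA #2 libraries and entered the test through NC siRNA #1 alone. Among the other 14, 2 were higher and 0 lower at an adjusted p under 0.05 (limma). Npc1, the lysosomal cholesterol exporter, read 144 and 145 FPKM against 87.9 and 82.3 FPKM (0.76, adjusted p 0.000154). Insig1 (-0.24), Scd2 (-0.24) and Ugt8a (-0.034) did not pass, nor did the glycolytic enzyme Gapdh (0.093), while Pgk1 passed the adjusted p at 0.48.

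Signalling lists held between 0 and 2 called genes each. Of 15 tested immediate early genes, Junb (10.2 and 12.2 FPKM against 27.3 and 25.3 FPKM, adjusted p 0.0123) and Nr4a3 (2.21 and 2.23 FPKM against 6.86 and 6.795 FPKM, adjusted p 1.41e-05) were called lower, and the median was -0.28. The count of 2 became 1 without NC siRNA #1 replicate 1 or NC siRNA #2 replicate 1, 4 without NC siRNA #1 replicate 2, 3 without NC siRNA #2 replicate 2 and 5 at a pseudocount of 0.1. At an adjusted p under 0.05 alone, 6 were lower and 1 higher, and without any 1 of the NC libraries 3 or 4 were lower and 0 higher. Fos and Myc, named after their values were seen, lay just under the fold threshold, Fos at 42.03 and 44.1 FPKM against 87.9 and 85.5 FPKM (-0.99, adjusted p 0.00025) and Myc at 9.45 and 10.02 FPKM against 21.1 and 19.4 FPKM (-0.98, adjusted p 0.00173). Smad7, a feedback inhibitor of TGF-beta signalling, was called higher at 17.1 and 17.9 FPKM against 6.44 and 7.65 FPKM, 1 of 8 tested BMP and TGF-beta targets. Its list mates Id2 (-0.79) and Id3 (0.14) were not called. None of 10 tested ERK feedback genes, 6 Wnt feedback genes or 13 cyclins and inhibitors was called. At these sizes that does not set the lists apart from the 4.19% of all genes. With the adjusted p alone (limma) 2 ERK feedback genes were lower, 0 Wnt feedback genes passed, and 1 of the cyclins and inhibitors was higher and 3 lower. Of all genes 10.4% were higher and 11.1% lower by that rule. At an unadjusted p under 0.05 the lists held 3, 1 and 4 genes. Without the non-treated group the lower genes numbered 4, 2 and 6. The 3 lower cyclins and inhibitors fell to 0 without NC siRNA #1 replicate 1 or NC siRNA #2 replicate 1 and to 1 without NC siRNA #2 replicate 2, and the 2 ERK feedback genes to 1 without any NC library but NC siRNA #2 replicate 1. Phlda1 (-0.32), Spred1 (-0.19), Tcf7l1 (-0.39) and Cdk4 (-0.31) did not pass, and Ccnd3 passed the adjusted p (-0.81, 0.034). The metallothionein genes Mt1 and Mt2, which bind zinc and copper, were called lower among 18 tested antioxidant genes. Mt2 read 34.03 and 53.8 FPKM against 130.1 and 126 FPKM and Mt1 160.1 and 206 FPKM against 384 and 376 FPKM, with a gap between the NC siRNA #1 replicates. Mt1 lost its call without any 1 of the 4 NC libraries (adjusted p 0.0791 to 0.223), as did Junb without NC siRNA #1 replicate 1 or either NC siRNA #2 replicate (0.0595 to 0.0956) and Mt2 without the same 3 libraries (0.054 to 0.0901). H19, an imprinted long RNA and the 1 called gene of 9 tested imprinted genes, read 509 and 522 FPKM against 255 and 233 FPKM (1.08, adjusted p 0.00543), with 151 FPKM in mock and 1234 FPKM in siSbp2l. Nnat (-0.17) and Snrpn (0.12) did not pass.

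Markers of other cell types differed between the groups. None of the 8 tested astrocyte markers was called, against 4.19% of all genes, and their median was -0.55. At an adjusted p under 0.05 (limma), 6 were lower and 1 higher, against 11.1% and 10.4% of all genes. Without NC siRNA #1 replicate 2 or NC siRNA #2 replicate 2, 3 were lower and 0 higher, and 1 marker was called lower. Without replicate 1 of either group 4 were lower and 0 higher. Of the 8 astrocyte markers tested, 1 was under 1 FPKM in both NC siRNA #1 libraries. It entered the test through NC siRNA #2 alone, so that it had to be lower in NC siRNA #1. Among the other 7, 5 were lower and 1 higher at an adjusted p under 0.05 (limma), with a median of -0.54. The summed level of the 11 astrocyte markers was 199 and 207 FPKM in NC siRNA #1 and 341 and 335 FPKM in NC siRNA #2, and 285 FPKM in mock on average. Gfap, an astrocyte filament protein, read 36.8 and 38.8 FPKM against 79.2 and 73.7 FPKM (-0.998, adjusted p 0.00146), and S100b, which OLs also express, 116 and 120.0 FPKM against 195 and 196 FPKM. Aqp4, Gja1 and Gjb6 were the 3 of the 11 astrocyte markers under 1 FPKM in all 4 libraries, and the other 8 passed the filter. Neuron markers leaned the other way. Of 8 tested, Tubb3 (267 and 273 FPKM against 126 and 118 FPKM) and Nefm (4.53 and 4.83 FPKM against 1.11 and 1.72 FPKM) were called higher and 0 were called lower. The sum of 14 markers was 448 and 445 FPKM against 283 and 283 FPKM, and 272 FPKM in mock on average. Most of the gap in this sum between the NC groups lay in Tubb3. Of the 8 tested neuron markers, 1 entered the test through NC siRNA #1 alone, so that it had to be higher there. Among the other 7, 2 were called higher and 0 lower, with a median of 0.35. Rbfox3, Snap25 and Slc17a7 were among the 5 of 14 neuron markers that stayed under 1 FPKM in all 4 libraries. P2ry12 (9.46 and 8.78 FPKM against 2.94 and 3.85 FPKM) was the 1 called gene of 13 microglia markers, whose sum was 10.4 and 10.4 FPKM in NC siRNA #1 and 4.53 and 5.06 FPKM in NC siRNA #2. Most of this sum was P2ry12 in each of the 4 libraries, and the sum in mock was 2.27 FPKM on average. Of those 13 genes, 7 were at 0 in all 4 libraries, and Cd68 (-0.11) did not pass. Endothelial markers summed to 4.75 to 5.76 FPKM, with Vwf at -0.67 and Kdr at 0.29, and Pmp22 was the 1 tested Schwann cell marker (0.72). The part of other cells in the differences above was not tested, and in bulk RNA fewer cells of a type and less RNA per cell cannot be told apart.

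Mock lay somewhat more often nearer to NC siRNA #2, among called genes as among all genes. Among the 275 higher genes mock lay nearer to NC siRNA #1 in 122 and nearer to NC siRNA #2 in 153, and among the 191 lower genes in 87 and 104. Mock was nearer to NC siRNA #1 in 44.4% of the higher, 45.5% of the lower and 44.2% of all genes tested. Mock lay between the NC groups in 224 of the higher and 150 of the lower genes (81.5% and 78.5%), against 34.98% of all genes, where the room between the groups is smaller.

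Called genes were most frequent among those that rose most from Day0 to mock Day3, a contrast that shares no library with the NC groups. Of the 161 genes that rose 8-fold or more from Day0 to mock, 29 were called higher in NC siRNA #1 (18.01%) and 15 lower (9.32%). Of the 1270 genes that rose 2-fold to 8-fold, 93 were called higher (7.32%) and 64 lower (5.04%). Of the 8294 genes within 2-fold, 126 were called higher (1.52%) and 93 lower (1.12%). Genes that fell 2-fold to 8-fold were called higher in 1.90% and lower in 1.29% of cases, and of the 75 that fell 8-fold or more, 2 were called higher (2.67%) and 2 lower (2.67%). The genes that rose were thus called more often in both directions. The classes also differ in level, since a gene that rose 8-fold on FPKM + 1 cannot be near the floor in mock. Shares at a matched level were not computed. Across all genes the NC difference and the mock minus Day0 difference were weakly related (Pearson's r 0.08, Spearman's coefficient 0.03, over 11113 genes that are not independent replicates). The difference also followed exon length (Spearman correlation 0.21) more than GC content (Spearman correlation -0.09) across genes.

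**Figure D5:**
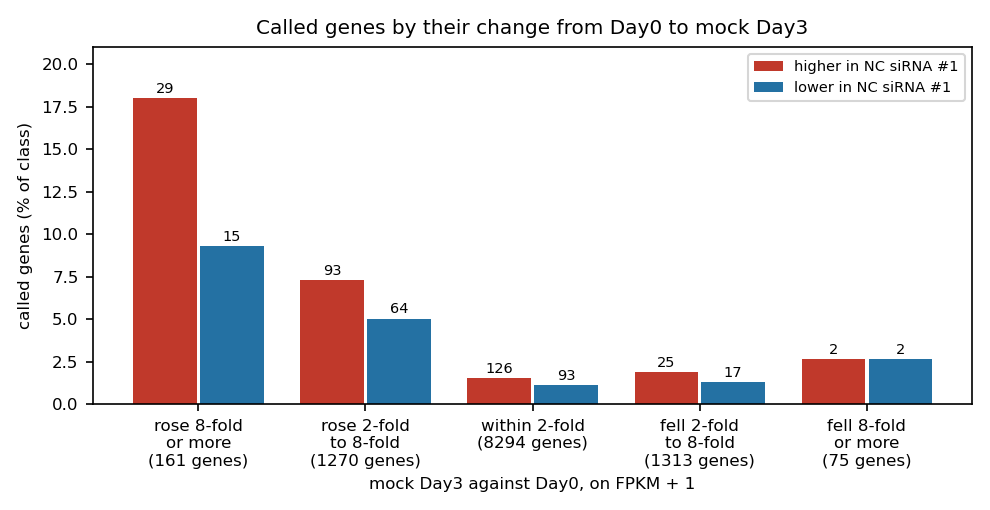
Share of genes called higher (red) or lower (blue) in NC siRNA #1 (y axis, percent of the class) in 5 classes of genes by their change from Day0 to mock Day3 on FPKM + 1 (x axis). Numbers above the bars count called genes, and the highest share is the 18.01% called higher among genes that rose 8-fold or more.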

How the data were processed

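Poly(A) RNA of 14 libraries, 2 per group, was sequenced from stranded libraries. Per the study's methods, the authors processed paired-end reads in OmicSoft ArrayStudio, and FPKM values per library were deposited by the authors. The build mm10 is named in the labels and its refGene gene models in a deposited table; the aligner and counting settings are not given in the sources used here. That table holds decimals and no counts. Another deposited table gives gene models and their own comparisons of siSbp2l with each control (fold changes, p-values, other scores), of which only the gene models, and no fold or p-value, were used. The labels name a serum medium and the methods a defined one.

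Depth was estimated from whole steps between low FPKM values. Per library, 88.7% to 92.6% of the low values (at least 0.2 FPKM, up to 50 fragments) of single-transcript genes came out within 0.1 of a whole fragment, too few for a count test. Floors of 3 fragments cover counting error only.

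log2(FPKM + 1) of the 12 Day3 libraries (6 groups, 6 residual degrees of freedom) was fitted with limma 3.58.1 (R 4.3.3) with an intensity trend and robust moderation, over genes with FPKM of at least 1 in 2 NC libraries. Called means at least 2-fold and a two-sided Benjamini-Hochberg adjusted p under 0.05; fold changes on this scale understate those of low genes. The fit was tested on simulated data. Named genes were the 12 largest called rises and falls with FPKM of at least 10 in 1 library and no overlap, genes the study discusses, and per list up to 6 called members, or the 2 most abundant where fewer than 2 were called. Members and lists were chosen with earlier results of these data known. Older symbols were matched through RefSeq synonyms. Alternatives covered pseudocount, filter, scaling, libraries fitted, moderation, replicate block, GC content with exon length, and each NC library left out. Some items that these rules name are not reported here.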

Additional observations from a re-analysis of the deposited data

How the results depend on the processing

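The direction of no gene called among the 466 changed under any alternative. Counts of called genes moved by over 1.5 times with the pseudocount and the fold threshold. A pseudocount of 0.1 gave 712 called genes (316 lower), a pseudocount of 5 gave 196 (125 higher and 71 lower), and no fold threshold gave 2393 (1158 higher and 1235 lower). Without 1 NC library at a time the count ran from 439 to 487, with 270 to 282 higher and 169 to 213 lower. Under the other filters, scalings, sets of libraries and moderations it stayed between 368 and 485, and without both the non-treated group and NC siRNA #2 replicate 2, an alternative chosen after seeing the data, it was 464. Median-ratio scaling moved the median of all genes from -0.056 to -0.0018. The labels number the replicates, but same-numbered NC libraries did not deviate together (r 0.013), and the replicate block gave 466 called genes over 12 libraries and 469 over the NC libraries alone. Of 80 named genes that were called, 27 lost the call under at least 1 alternative, most at the pseudocount of 5, and 8 without 1 NC library (BC002163, Bcan, Dscam, Gpr37, Junb, Mt1, Mt2 and Ndrg1). Sign changes occurred only in named genes that were not called and had differences near 0. Median-ratio scaling gave 0.0384 for Acat2, 0.0507 for Atp6v1b2, 0.0478 for Secisbp2, 0.0196 for Srp68 and 0.0273 for Ugt8a, and upper-quartile scaling gave 0.0033 for Atp6v1b2 and 0.0030 for Secisbp2. Removing GC content and exon length trends gave 0.0063 for Acat2, 0.0307 for Atp6v1e1, 0.0005 for Atp6v1g1, 0.0172 for Cd68 and 0.0324 for Gpx4. Without 1 NC library the range was -0.0343 to 0.0147 for Atp6v1b2, -0.3186 to 0.1081 for Cd68, -0.0449 to 0.0937 for Pcna, -0.0451 to 0.0264 for Secisbp2, -0.0475 to 0.1572 for Srp19 and -0.0998 to 0.0198 for Srp68. Without the non-treated group and NC siRNA #2 replicate 2, Pcna was -0.0449 and Secisbp2 0.0143. The causes of these changes were not tested. The depth of 6560011 fragments in NC siRNA #2 replicate 2 limits statements on genes near 1 FPKM, and 2 libraries per group limit the precision of each value.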
